A study of Mus musculus with 18 samples.

Results

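The transition of the Hmga2 knockout clone KO#2 from the undifferentiated state (0 h) to the early epiblast-like state (24 h) was followed in 6 of the 18 RNA-seq libraries of the study, chosen by their titles as the 3 biological replicates of KO#2 at each time. The other 12 libraries came from wt cells and from a second knockout clone, KO#1, with 3 libraries at each time, and were used for comparison. KO#2 was 1 clone of mouse induced pluripotent stem cells (iPSCs) with the genotype Hmga2 KO; a response found in KO#2 alone cannot be assigned to the genotype, which KO#1 shares. At 0 h the cells grew over mitotically inactivated fibroblast feeders in serum with leukaemia inhibitory factor (LIF) and the inhibitor pair 2i, which blocks MEK (PD0325901) and GSK3 (CHIR-99021). For the 24 h samples the cells were plated without feeders on the basement membrane matrix Geltrex, in serum-free medium with Activin A and bFGF, to induce epiblast-like cells (EpiLCs). The libraries of wt cells and KO#1 had the same media and times and differed in genotype or clone. The labels call the cells iPSCs at both times, and the medium, the substrate and the feeder layer changed together between them.

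Naive pluripotent cells correspond to the epiblast of the preimplantation embryo. LIF acts through the receptor subunits Lifr and Il6st and the transcription factor Stat3 to keep the naive factors expressed, and the MEK inhibitor silences the ERK pathway downstream of the FGF receptors. When the inhibitors and LIF are withdrawn and bFGF and Activin A are given, the cells lose the naive factors, keep the core factors Pou5f1 and Sox2, and switch on genes of the postimplantation epiblast such as Fgf5, Pou3f1 and the de novo DNA methyltransferases. Hmga2 encodes an architectural chromatin protein that binds the minor groove of AT-rich DNA.

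The total count was 13448569 to 17823888 in the 6 libraries of KO#2, and 3466436 to 23872837 over all 18. Of 45706 genes in the table, 16619 passed the filter on low counts. Levels are given as CPM, the counts scaled to the library total after its correction by the TMM factor, a factor that aligns the bulk of the genes between libraries. The TMM factor was 1.43 ± 0.0287 at 0 h and 1.40 ± 0.0756 at 24 h (SD, n = 3 each), so that scaling hardly differed between the times in this clone. A level of 3 counts corresponded to 0.116 to 0.157 CPM in these libraries, a floor that covers counting error only. Across genes, Pearson's r of log2 CPM averaged 0.965 between libraries of 0 h, 0.965 between libraries of 24 h and 0.906 between the times. Protein-coding genes held 78.0% ± 1.5 of the counts at 0 h and 83.1% ± 1.33 at 24 h (SD, n = 3; two-sided p = 0.1 by an exact permutation test, which cannot go lower with 3 against 3).

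Hmga2 (ENSMUSG00000056758, chromosome 10 of GRCm38, 120361275 to 120476469) was at 4.10, 1.84 and 8.25 CPM in replicates 1, 2 and 3 of 0 h and at 10.5, 3.02 and 3.48 CPM at 24 h. The 2 groups overlapped and the change was not called (log2 fold change 0.25, SE 0.60, adjusted p = 0.797, from the quasi-likelihood test of edgeR, Benjamini-Hochberg adjusted). In wt cells Hmga2 was at 13.3 to 22.4 CPM at 0 h, above every library labelled KO#2, and at 5.51 to 5.93 CPM at 24 h, within the range of KO#2. In KO#1 it was at 1.75 to 10.2 CPM at 0 h and 0.871 to 3.67 CPM at 24 h. Reads on the gene were thus present in every library labelled KO#2, 41 to 200 counts in each. The part of the gene that is deleted is not given in the sources used here, and 2 antisense genes lie within its span, so that the gene-level count checks the label only in part. The clone is therefore named by its label throughout. In the paper, a western blot for the Hmga2 protein covers wt cells and clones labelled KO#1 and KO#2. The paper cites that blot for the suppression of Hmga2. The paralogue Hmga1, which encodes a related AT-hook protein, was at 31.9, 24.3 and 42.8 CPM at 0 h and 127, 45.8 and 79.5 CPM at 24 h. Hmga1 rose 2.55-fold (log2 fold change 1.35, SE 0.37, adjusted p = 0.0117), a call that was lost without 0 h replicate 2 or 24 h replicate 1; the log2 fold change was 0.93 to 1.65 over the fits that left out 1 library. Its level was lower in KO#2 than in wt cells at both times, where it was at 277.8 to 435.6 CPM at 0 h and 698.7 to 961.5 CPM at 24 h. KO#1 was also below wt cells, at 57.0 to 142 CPM and then at 139 to 221 CPM.

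A total of 4324 of the 16619 genes changed in KO#2 between 0 h and 24 h at an adjusted p-value under 0.05, which is 26.0% of the genes tested. Of these, 2111 rose (12.7% of the genes tested) and 2213 fell (13.3%). The median absolute log2 fold change of the genes called was 1.45, and 236 rose and 218 fell by 8-fold or more. Of the genes called, 3984 were protein-coding. The count fell to 2534 without 24 h replicate 3 and to 2672 without 0 h replicate 1. Libraries of a group differed with transcript length: the deviation from the group mean correlated across genes with log length at 0.338 in 0 h replicate 1, -0.391 in 0 h replicate 2, 0.311 in 24 h replicate 1 and -0.250 in 24 h replicate 3, while the response itself correlated with log length at -0.086. With offsets corrected for length, chosen after seeing the data, 4472 genes were called.

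The 8 largest rises among expressed protein-coding genes included those of Myrf, Soga3, Pou3f1, Lef1, Lin28a, Dusp4 and Cgnl1. Myrf, a membrane-bound transcription factor known from myelinating glia (ENSMUSG00000036098, chromosome 19, 10208272 to 10240748), went from 1.14, 0.585 and 2.30 CPM at 0 h to 143, 31.2 and 31.4 CPM at 24 h. Its rise of 51.1-fold was led by 24 h replicate 1, which stood above the other two (log2 fold change 5.68, SE 0.61, adjusted p = 5.78e-06). Lin28a, the RNA-binding protein that blocks the maturation of let-7 microRNAs, was at 7.44, 9.89 and 21.5 CPM and then at 255, 165 and 383 CPM. The libraries of the 2 times did not overlap, which the rule for choosing these genes required. The level rose 20.7-fold (log2 fold change 4.37, SE 0.53, adjusted p = 1.82e-05). Cgnl1, a junction-associated protein, was at 2.80, 4.32 and 4.32 CPM and then at 76.4, 50.3 and 82.8 CPM, 18.3-fold higher. Soga3 rose 43.3-fold, from 0.569, 0.225 and 1.29 CPM to 49.0, 22.7 and 19.0 CPM, highest in 24 h replicate 1. Pou3f1, Lef1 and Dusp4 are described with their groups. Soga3, Pou3f1, Lef1 and Lin28a overlap antisense genes, and since the use of strand in the counting is not given in the sources used here, reads of the partners cannot be told apart; the same holds for Lrrc31, Mitf, Lrrc34, Plagl1 and Col12a1 among the falls.

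The largest falls were those of Lrrc31, Mitf, Pappa, Lrrc34, Plagl1, Lama1, Cd3g and Col12a1. Lrrc31 and Lrrc34, both genes of leucine-rich repeat proteins, lie close to each other on chromosome 3 (30679058 to 30699843 and 30624267 to 30647869). Lrrc31 was at 37.2, 28.9 and 38.0 CPM at 0 h and 1.15, 1.39 and 0.434 CPM at 24 h, 34.6-fold lower (log2 fold change -5.11, SE 0.39, adjusted p = 3.33e-07). Lrrc34 was at 19.9, 30.6 and 34.8 CPM and then at 1.88, 2.28 and 0.652 CPM, 17.6-fold lower (log2 fold change -4.14, SE 0.56, adjusted p = 5.05e-05). Mitf, the transcription factor best known from melanocytes, was at 31.8, 28.7 and 71.8 CPM and fell to 1.41, 2.98 and 2.17 CPM, 19.9-fold lower (log2 fold change -4.32, SE 0.48, adjusted p = 6.52e-06). In each of these genes the lowest library of 0 h was above the highest of 24 h, which the rule for choosing them required. Plagl1, an imprinted zinc finger gene, was 17.1-fold lower, at 99.6, 35.1 and 72.4 CPM before and 6.22, 4.88 and 1.04 CPM after. Lama1, the alpha chain of embryonic laminin, was 16.2-fold lower, at 339.6, 196 and 274 CPM before and 20.7, 20.5 and 8.78 CPM after. Col12a1, a fibril-associated collagen, was 15.5-fold lower, at 156, 105 and 238 CPM before and 11.03, 10.8 and 10.3 CPM after. Pappa, a protease of IGF-binding proteins, was 19.5-fold lower, and Cd3g, a chain of the T cell receptor complex, 15.5-fold lower. Col12a1 and Lama1 are matrix genes, and the summed level of 13 feeder fibroblast markers was 405.2 to 1086 CPM at 0 h and 94.3 to 263.9 CPM at 24 h; its part in these falls was not tested. In bulk RNA, fewer cells of a type and less RNA per cell cannot be told apart. None of the calls of these 7 rises and 8 falls was lost when any single library of KO#2 was left out. The rule took called genes without overlap and with the largest changes in these same libraries, so this adds little to it.

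**Figure D1:**
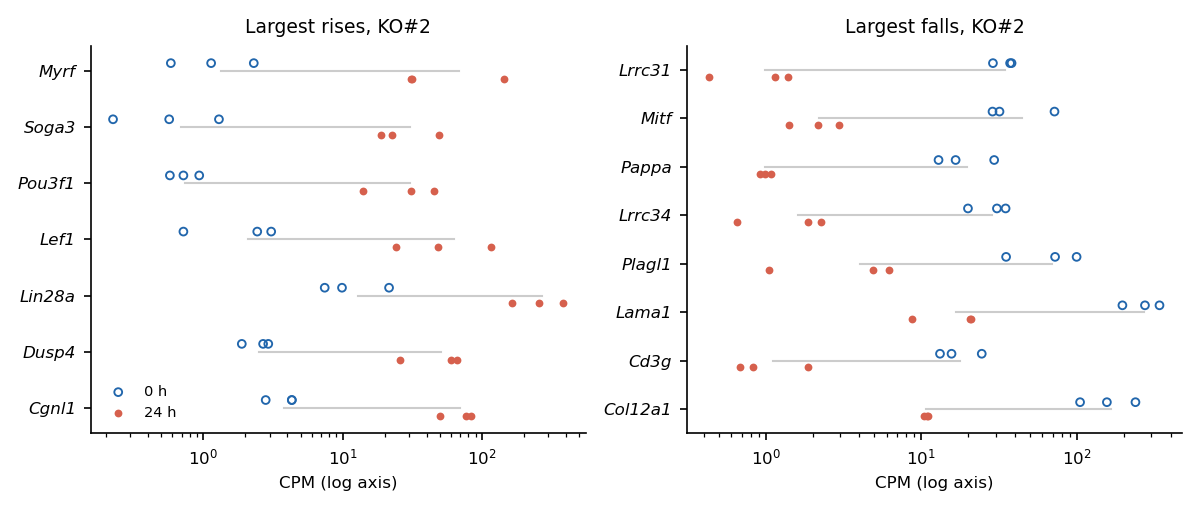
Levels in CPM (log axis) of 7 of the 8 largest rises and of the 8 largest falls among expressed protein-coding genes in KO#2. Open points are the 3 libraries of 0 h, filled points the 3 of 24 h, and the grey line joins their means. The points of the 2 times do not overlap in any gene shown, which the rule for choosing them required.

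Naive pluripotency genes fell together. Of 16 tested, 13 fell (13.3% of all genes fell), 1 rose and 2 were not called, with a median log2 fold change of -2.82 against -0.03 over all genes tested. Their summed level was 3520, 2908 and 3369 CPM at 0 h and 693.4, 834.9 and 382 CPM at 24 h, lowest in 24 h replicate 3. Tfcp2l1, a transcription factor of the naive network that acts downstream of LIF, was at 1370.1, 894 and 1406 CPM at 0 h and 139, 138 and 43.8 CPM at 24 h. It was 11.4-fold lower (log2 fold change -3.52, SE 0.37, adjusted p = 4.58e-06), and its level in 24 h replicate 3 was below that in the other two. Nr5a2, an orphan nuclear receptor that binds the Pou5f1 regulatory region, was at 82.0, 69.5 and 82.5 CPM and then at 13.0, 14.7 and 5.17 CPM, 7.11-fold lower (log2 fold change -2.83, SE 0.30, adjusted p = 5.21e-06). Tcl1, a coactivator of the kinase Akt, was at 47.9, 67.5 and 71.3 CPM and then at 7.58, 10.5 and 5.73 CPM, 7.83-fold lower (log2 fold change -2.97, SE 0.35, adjusted p = 1.35e-05). Spic, an Ets-family factor, went from 11.3, 17.8 and 6.81 CPM to 0.157, 0.310 and 0.174 CPM, close to the floor of 3 counts. Its log2 fold change was -5.73 (SE 0.67).

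The best-known naive factors fell as well. Nanog was at 433, 552 and 352 CPM at 0 h and 60.8, 106 and 24.6 CPM at 24 h (log2 fold change -2.80, SE 0.49, adjusted p = 0.000502). Klf4 was at 195, 115 and 140.2 CPM and then at 18.9, 14.9 and 4.00 CPM (log2 fold change -3.57, SE 0.46, adjusted p = 3.36e-05). Esrrb was at 451, 358 and 499 CPM and then at 105, 110.1 and 39.1 CPM (log2 fold change -2.36, SE 0.34, adjusted p = 0.00011). In all 3 factors 24 h replicate 3 was the lowest library, and no library of 24 h reached the level of any of 0 h. Tbx3, Prdm14, Klf2, Klf5, Dppa3 and Fbxo15 fell by 1.76 to 3.38 on the log2 scale. Zfp42 (Rex1) was at 123, 169 and 99.9 CPM and then at 64.2, 105 and 75.1 CPM, which overlapped and was not called (adjusted p = 0.0659). Nr0b1 (Dax1) was at 128, 163 and 159.8 CPM and 143, 189 and 108 CPM, with a log2 fold change of -0.03 (adjusted p = 0.928). Gbx2, a homeobox gene that belongs to the naive list as a LIF-Stat3 target and is also expressed in the later epiblast, went against the list. It rose 10.1-fold, from 1.10, 0.989 and 1.77 CPM to 12.8, 13.9 and 12.5 CPM (log2 fold change 3.34, SE 0.47, adjusted p = 7.86e-05).

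Genes of the formative and primed epiblast rose: 11 of 14 tested were called higher (12.7% of all genes were), with a median log2 fold change of 2.17 against -0.03 over all genes tested. In edgeR 12 were higher and 0 lower at an unadjusted p under 0.05, and DESeq2 called 11 higher and 0 lower. With at least 10 counts required in every library, 8 of the genes remained. Of these 6 rose and 0 fell, with a median log2 fold change of 1.37. Fgf5, the ligand that marks the postimplantation epiblast, was at 0.122, 0.180 and 0.240 CPM at 0 h, near the floor, and at 13.0, 6.27 and 16.1 CPM at 24 h. It rose 63.3-fold (log2 fold change 5.98, SE 0.74, adjusted p = 2.38e-05). Pou3f1 (Oct6), a POU factor that partners Otx2 at epiblast enhancers, was at 0.935, 0.720 and 0.576 CPM and then at 45.6, 14.01 and 31.1 CPM, 40.0-fold higher (log2 fold change 5.32, SE 0.43, adjusted p = 4.46e-07). Lef1, the nuclear effector of Wnt signals, went from 2.44, 0.720 and 3.07 CPM to 116, 24.1 and 48.6 CPM (log2 fold change 4.92, SE 0.68, adjusted p = 6.70e-05). In Pou3f1 and Lef1 the lowest library of 24 h was replicate 2. Otx2, the homeobox factor that opens the formative programme, rose less, 3.75-fold, from 16.1, 10.3 and 14.8 CPM to 64.3, 35.3 and 55.1 CPM (log2 fold change 1.91, SE 0.48, adjusted p = 0.00677). Utf1, Sall2, Sox3, Tcf15 and Grhl2 rose by 1.74 to 2.99 on the log2 scale without overlap between the times. Zic2 was at 20.8, 9.53 and 16.5 CPM and then at 44.1, 13.0 and 16.6 CPM, high in 24 h replicate 1 alone, and Foxd3 was at 31.0, 21.5 and 16.2 CPM and 35.2, 19.3 and 17.9 CPM, and neither was called.

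**Figure D2:**
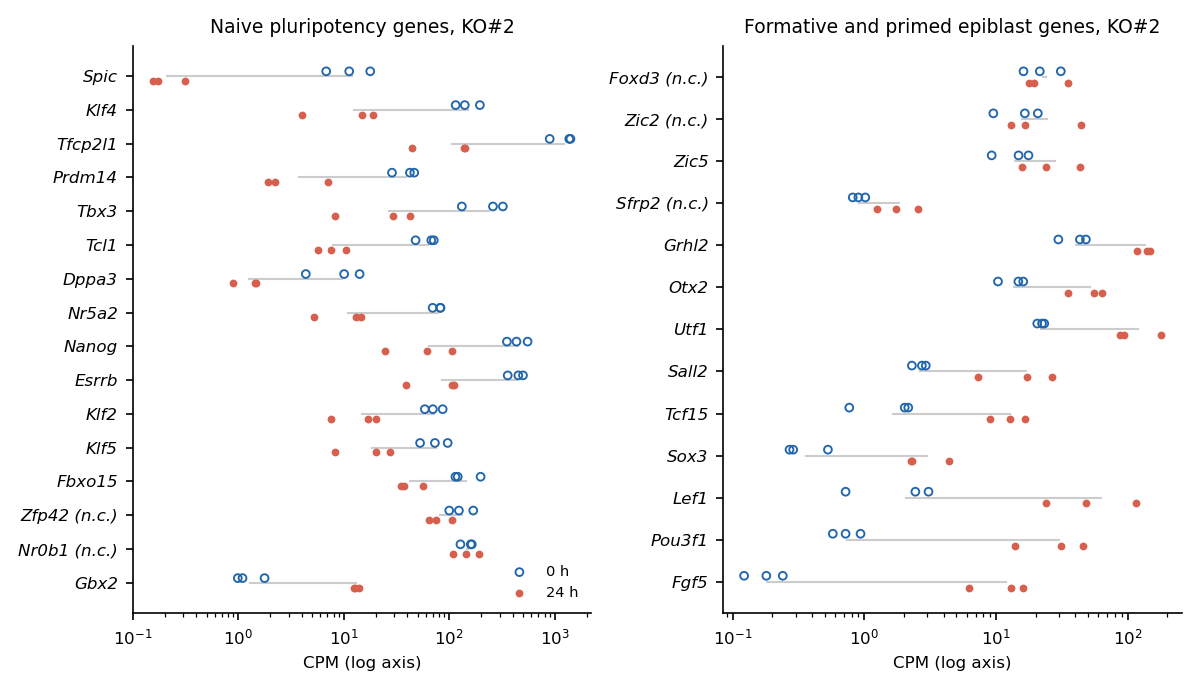
Levels in CPM (log axis) of the 16 naive genes and 13 of the formative and primed epiblast genes in the 6 libraries of KO#2, ordered by log2 fold change. Open points are libraries of 0 h, filled points libraries of 24 h, the grey line joins their means, and n.c. marks a gene that was not called. Of the naive genes 13 moved to lower and Gbx2 to higher levels, and 10 of the epiblast genes shown moved to higher levels.

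The core factors stayed abundant. Pou5f1 (Oct4) was at 472, 539 and 567 CPM at 0 h and at 756, 878 and 864 CPM at 24 h, higher in every library of 24 h but not called (log2 fold change 0.66, adjusted p = 0.0571). Sox2, its partner, was at 243, 236 and 239.7 CPM and then at 131, 120.1 and 83.2 CPM, 2.15-fold lower (log2 fold change -1.10, SE 0.27, adjusted p = 0.00572). Rif1, Sall4 and Tdgf1 were not called. Of the 10 genes on the core list 5 rose and 1 fell (12.7% and 13.3% of all genes), and 2 rose without 0 h replicate 1 and 3 without 24 h replicate 3. Dppa4 rose 2.35-fold in this list (log2 fold change 1.24, SE 0.27, adjusted p = 0.00272) beside Lin28a.

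The de novo DNA methyltransferases rose with the epiblast genes. Dnmt3a was at 28.0, 17.99 and 20.0 CPM at 0 h and 395, 164 and 465 CPM at 24 h, 15.5-fold higher (log2 fold change 3.95, SE 0.36, adjusted p = 9.62e-07). Dnmt3b rose from 62.2, 65.3 and 83.4 CPM to 540.1, 296 and 659 CPM (log2 fold change 2.83, SE 0.36, adjusted p = 2.82e-05), and their cofactor Dnmt3l from 142, 168 and 211 CPM to 782, 625 and 817 CPM (log2 fold change 2.10, SE 0.30, adjusted p = 9.84e-05). In all 3 genes 24 h replicate 2 was the lowest library of its group and lay above every library of 0 h. Tdg, the glycosylase that completes active demethylation, rose 2.15-fold (log2 fold change 1.10, SE 0.21, adjusted p = 0.000817). Of 9 genes that write or erase DNA methylation, 5 rose and 1 fell (12.7% and 13.3% of all genes). The one that fell was the dioxygenase Tet2 (log2 fold change -1.15), a call lost without 0 h replicate 1 or 24 h replicate 3, and 2 genes fell without 0 h replicate 2 or 24 h replicate 1. By contrast, the maintenance enzyme Dnmt1 had a log2 fold change of 0.51 (adjusted p = 0.166) and Tet1 of -0.13 (adjusted p = 0.837).

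Genes of the LIF-Stat3 pathway fell in part. Of 11 genes 6 fell (13.3% of all genes fell), with a median log2 fold change of -1.02, and the number was 5 to 6 when single libraries of KO#2 were left out. Among the receptor subunits, Il6st (gp130) was at 120.2, 89.6 and 132 CPM at 0 h and 43.7, 40.5 and 29.3 CPM at 24 h, 3.01-fold lower (log2 fold change -1.59, SE 0.23, adjusted p = 0.00011). Osmr, the partner of Il6st for oncostatin M, went from 11.3, 15.4 and 13.1 CPM to 1.36, 0.697 and 0.217 CPM (log2 fold change -4.14, SE 0.64, adjusted p = 0.000184). Lifr, the LIF-binding subunit, was at 92.3, 58.4 and 143 CPM and then at 119.9, 79.8 and 53.1 CPM, which overlapped and was not called (adjusted p = 0.694). Stat3 itself was at 59.5, 57.6 and 101 CPM and then at 23.3, 24.1 and 17.6 CPM, 3.36-fold lower (log2 fold change -1.75, SE 0.31, adjusted p = 0.000553). Socs3, the feedback inhibitor that Stat3 induces, fell the most among the targets, from 40.7, 38.7 and 65.8 CPM to 4.91, 3.33 and 2.87 CPM, 13.1-fold lower (log2 fold change -3.71, SE 0.41, adjusted p = 6.12e-06). Bcl3 and Jak2 fell by 1.73 and 0.98 on the log2 scale, and the kinase genes Pim1 (log2 fold change 0.41) and Pim3 (-0.22) were not called. The Stat consensus TTCNNNGAA, read in windows from 250 bases before to 50 bases after each RefSeq start (GRCm38.p6; the motif is its own reverse complement), was present in 2 of the 11 genes, Socs3 and Cish, against 9.55% of all genes with a window and 8.30% of all 32851 windows. The Socs3 match, 154 bases before the start, is shown since Socs3 carried the largest fall among the pathway's targets; chr11:117969476-117969555 of GRCm38.p6 is printed on the minus strand, with the fixed letters of the motif in capitals.

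Socs3: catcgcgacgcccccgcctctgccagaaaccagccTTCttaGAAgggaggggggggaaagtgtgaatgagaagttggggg

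Genes of the FGF-ERK pathway rose in part. Of 19 genes tested 11 rose (12.7% of all genes rose), and 0 fell, in edgeR. The same counts, 11 and 0, were obtained at an unadjusted p under 0.05 and with DESeq2. The rises numbered 9 to 11 when single libraries of KO#2 were left out. They were 8 with library sizes alone and 8 at an adjusted p under 0.01. Among ligands, Fgf15 went from 0.244, 0.0450 and 0.0480 CPM at 0 h, 1 to 6 counts a library, to 8.20, 5.46 and 13.6 CPM at 24 h (log2 fold change 6.18, SE 0.66, adjusted p = 4.78e-06), and Fgf5 rose as above. With so few counts at 0 h the size of the rise of Fgf15 is uncertain. Fgf4, whose gene lies near Fgf15 on chromosome 7, was at 254, 251 and 193 CPM and then at 307, 284 and 295 CPM and was not called (adjusted p = 0.366). None of the receptor genes Fgfr1 to Fgfr4 was called, with log2 fold changes of -0.05, 0.73, 0.92 and 0.42. Feedback targets were among the rises. Dusp6, the ERK phosphatase, was at 11.6, 10.5 and 16.8 CPM and then at 119.9, 183 and 145 CPM, 11.5-fold higher (log2 fold change 3.52, SE 0.30, adjusted p = 6.27e-07). Dusp4, a related phosphatase, was at 2.93, 1.89 and 2.69 CPM and then at 66.7, 26.0 and 59.5 CPM, 20.2-fold higher (log2 fold change 4.34, SE 0.43, adjusted p = 2.43e-06). The Sprouty inhibitor Spry4 rose from 6.34, 4.32 and 22.4 CPM to 92.5, 50.6 and 36.5 CPM, and Spry1, Spry2 and Spred1 rose by 1.10, 0.84 and 1.42 on the log2 scale. The Ets factor Etv4 rose 5.80-fold, from 7.11, 8.90 and 15.9 CPM to 68.8, 64.8 and 51.3 CPM, while its relative Etv5 was at 302, 277 and 228 CPM and 277, 229.7 and 217 CPM (adjusted p = 0.718). The immediate early genes are the fast targets of the same pathway. Of 11 tested 0 rose and 2 fell, Fos and Fosb, near the shares over all genes (12.7% rose, 13.3% fell). The call of Fosb was lost without any single library but 0 h replicate 2. Fos was at 21.7, 2.92 and 15.3 CPM and then at 2.04, 1.66 and 0.521 CPM (log2 fold change -3.25, SE 0.73, adjusted p = 0.0034), with 0 h replicate 2 close to the libraries of 24 h, and Ier2 and Dusp1 had log2 fold changes of 0.17 and 0.09.

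The Nodal-Activin and Wnt lists had shares of calls near those over all genes, of which 12.7% rose and 13.3% fell. Of 17 genes of the Nodal-Activin pathway 3 rose and 3 fell, and 1 rose without 0 h replicate 1. Skil (SnoN), a transcriptional corepressor and Smad target, was at 66.8, 51.5 and 54.7 CPM at 0 h and 226, 161 and 301 CPM at 24 h, 3.98-fold higher (log2 fold change 1.99, SE 0.24, adjusted p = 1.53e-05). Acvr1b, the type I receptor of Activin and Nodal, was at 40.9, 33.6 and 38.2 CPM and then at 12.0, 11.1 and 8.34 CPM, 3.59-fold lower (log2 fold change -1.84, SE 0.33, adjusted p = 0.000656). Inhba, the Activin A subunit, fell from 5.12, 4.90 and 8.78 CPM to 1.88, 1.01 and 1.17 CPM (log2 fold change -2.21, SE 0.52, adjusted p = 0.00479). The ligand Nodal (0.07, adjusted p = 0.883) and Smad4 (0.00, adjusted p = 0.998) were not called. Of 16 Wnt genes 3 rose and 2 fell, and 1 fell without 0 h replicate 3, 24 h replicate 2 or 24 h replicate 3. Besides Lef1, Ccnd1 rose from 11.8, 14.7 and 27.6 CPM to 98.8, 53.1 and 57.7 CPM (log2 fold change 1.95, SE 0.31, adjusted p = 0.000236). Axin2, the feedback inhibitor of the pathway, was at 8.82, 5.76 and 12.3 CPM and 39.9, 17.3 and 16.7 CPM (log2 fold change 1.46, SE 0.42, adjusted p = 0.0156), a call that was lost without 0 h replicate 1, 0 h replicate 2 or 24 h replicate 1, with a log2 fold change of 0.93 to 1.75 over the fits that left out 1 library. Cdx1 fell from 8.70, 7.42 and 6.62 CPM to 0.575, 0.619 and 0.174 CPM (log2 fold change -4.03, SE 0.61, adjusted p = 0.000152), and Ctnnb1 was not called (0.15).

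**Figure D3:**
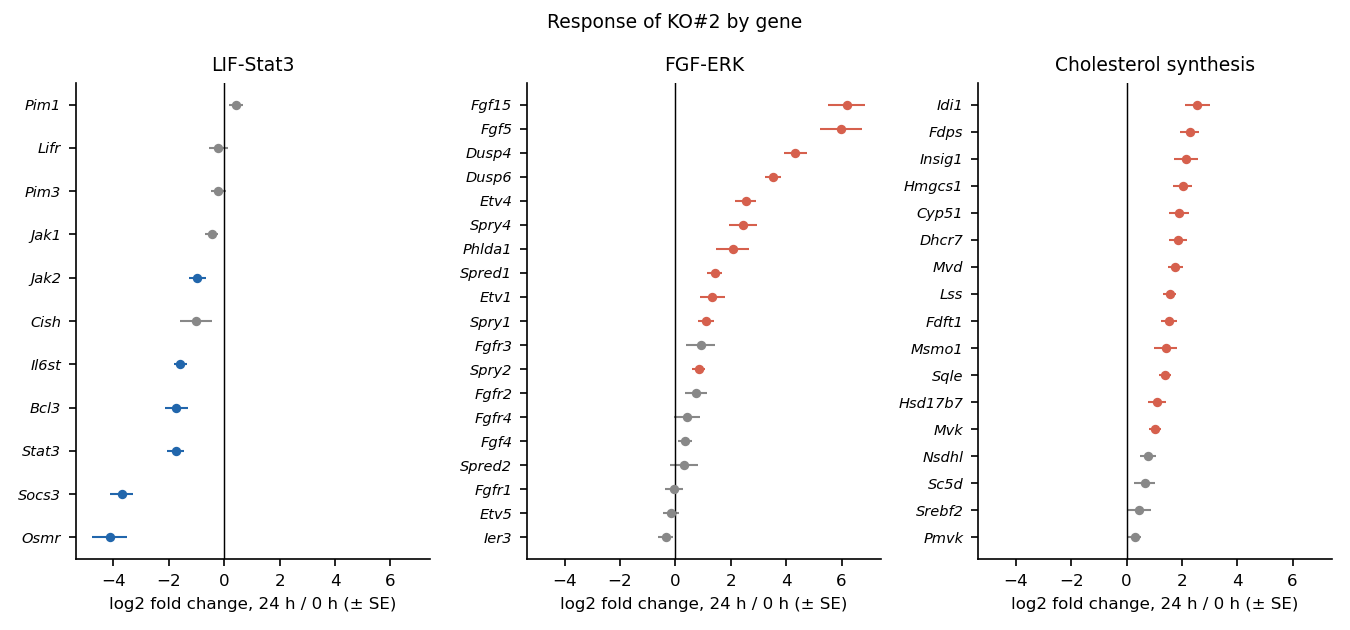
Log2 fold change from 0 h to 24 h in KO#2 with its SE for the tested genes of the LIF-Stat3 and FGF-ERK lists and 17 of the 20 of the cholesterol synthesis list. Colour marks genes called higher or lower, and grey genes not called. The 6 calls in the LIF-Stat3 list are falls, and the 11 and 13 calls shown in the other lists are rises.

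Of the lineage lists, the mesendoderm list was hardly expressed: 9 of its 11 genes did not pass the filter, and T (Brachyury) had 0, 1 and 0 counts at 0 h and 2, 9 and 4 counts at 24 h. Eomes rose 3.15-fold, from 4.06, 2.56 and 2.49 CPM to 10.1, 11.3 and 7.43 CPM (log2 fold change 1.66, SE 0.33, adjusted p = 0.00148), and Gsc, at 0.894, 1.12 and 0.336 CPM and then at 0.0523, 0.193 and 0.0869 CPM, was called lower, which held in 1 of the 6 fits that left out a library, that without 0 h replicate 3. Over all genes 12.7% rose and 13.3% fell, and the falls in the primitive endoderm and trophoblast lists were near that share. Of 12 primitive endoderm genes 5 rose and 2 fell, and 3 rose without 0 h replicate 1. Those that rose were low throughout: Gata6 went from 2.03, 1.26 and 0.623 CPM to 10.3, 4.57 and 4.78 CPM (log2 fold change 2.31, SE 0.53, adjusted p = 0.00382) and Sox17 from 0.406, 0.180 and 0.0959 CPM to 1.31, 1.01 and 2.17 CPM (log2 fold change 2.65, SE 0.60, adjusted p = 0.00369). Those that fell were Lama1 and Dab2, and Gata4 was not called (-0.16, adjusted p = 0.836). With at least 10 counts required in every library, 4 primitive endoderm genes remained, of which 0 rose and 1 fell. Their median log2 fold change was -0.47, against 0.28 for the 12 genes. Of 5 neural genes tested 2 rose and 2 fell, and 1 fell without 0 h replicate 3, 24 h replicate 2 or 24 h replicate 3. Sox11 was at 3.49, 3.73 and 5.13 CPM and then at 29.8, 17.2 and 31.5 CPM, 6.34-fold higher (log2 fold change 2.67, SE 0.28, adjusted p = 4.68e-06), Pax6 rose to 0.993, 1.59 and 0.999 CPM, and Nes, an intermediate filament gene, fell 2.08-fold (log2 fold change -1.06, SE 0.25, adjusted p = 0.00467). Of 8 trophoblast genes 1 fell, Tfap2c, from 29.5, 21.7 and 11.9 CPM to 2.77, 6.35 and 1.52 CPM (log2 fold change -2.56, SE 0.46, adjusted p = 0.000591). Krt8, a keratin of simple epithelia, was at 44.7, 92.0 and 10.8 CPM and then at 8.78, 35.2 and 9.60 CPM, which overlapped and was not called. In the trophoblast list 3 genes fell without 0 h replicate 3 and 6 without 24 h replicate 2.

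Genes of the germline, which are kept silent by promoter methylation and by the factor complex around Mga, Max and E2f6 that binds E-boxes, rose in part. Of 12 genes 5 rose (12.7% of all genes rose), with a median log2 fold change of 1.19 against -0.03 over all genes tested. The 5 became 1 without 0 h replicate 1 or 0 h replicate 3, and 3 without 24 h replicate 1 or 24 h replicate 2. Mael, of the piRNA pathway, was at 3.90, 5.49 and 3.74 CPM at 0 h and 23.3, 21.7 and 20.5 CPM at 24 h, 4.98-fold higher (log2 fold change 2.32, SE 0.44, adjusted p = 0.0009), and held its call in each of those fits. The other named rises were lost in some of them, as given by the counts above. Sycp1, of the synaptonemal complex, was at 14.1, 13.9 and 9.83 CPM and then at 57.9, 38.6 and 32.8 CPM (log2 fold change 1.77, SE 0.55, adjusted p = 0.0232), Ddx4 (Vasa) at 1.71, 2.83 and 1.58 CPM and 6.58, 8.40 and 5.34 CPM (log2 fold change 1.73, SE 0.48, adjusted p = 0.0133), and Slc25a31, a testis ADP/ATP carrier, at 1.26, 1.89 and 0.767 CPM and 7.995, 9.29 and 5.21 CPM (log2 fold change 2.51, SE 0.77, adjusted p = 0.023). The libraries of the 2 times did not overlap in 9 of the 12 genes, higher at 24 h in each, against 22.8% of all genes tested. The E-box CACGTG, searched for after these counts were seen (both strands read alike), was present in the promoter window of 9 of the 12 genes (75.0%), against 8.09% of all genes and 7.15% of all windows. Of the 9, Mael, Slc25a31, Sycp1 and Ddx4 were called higher and Brdt, Hormad1, Stag3, Sycp3 and Taf7l were not called. A match describes the window and is not evidence of binding. The matches of the 4 called genes are shown with the E-box in capitals, 80 bases each, on the strand of the gene: chr1:166238915-166238994 (minus strand, 223 bases before the start), chr3:40708741-40708820 (plus strand, 93 bases before), chr3:102936152-102936231 (minus strand, 94 bases before) and chr13:112652297-112652376 (minus strand, 29 bases before), all of GRCm38.p6 from RefSeq.

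Mael: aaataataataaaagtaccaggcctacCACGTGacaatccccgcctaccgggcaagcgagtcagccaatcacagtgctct

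Slc25a31: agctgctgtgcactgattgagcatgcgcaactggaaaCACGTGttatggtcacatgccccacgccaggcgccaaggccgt

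Sycp1: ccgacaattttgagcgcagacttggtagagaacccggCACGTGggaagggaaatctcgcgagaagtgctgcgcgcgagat

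Ddx4: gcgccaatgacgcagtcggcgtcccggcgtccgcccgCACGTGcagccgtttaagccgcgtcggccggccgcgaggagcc

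Genes of the two-cell-like state, a rare state of naive cultures, fell in 5 of 7 cases (13.3% of all genes fell). Zscan4f was at 21.9, 35.9 and 78.4 CPM at 0 h and 5.54, 9.02 and 16.4 CPM at 24 h (log2 fold change -2.14, SE 0.59, adjusted p = 0.0124). The level was highest in 0 h replicate 3, and without that library 0 of the 7 were called, against 5 with all libraries in edgeR and in DESeq2 and 6 at an unadjusted p under 0.05. Without another single library the number was 2 to 4. The Zscan4 genes are near-identical copies that share reads, so that their single values are uncertain. The summed level of the list was 46.1, 72.7 and 147.2 CPM at 0 h and 12.0, 20.4 and 33.4 CPM at 24 h.

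Polycomb repressive complex 2 (PRC2) places the repressive mark H3K27me3. Of 11 PRC2 genes 2 rose and 1 fell, near the shares over all genes of 12.7% and 13.3%, and so were the counts in the nuclear envelope list. Phf19, an accessory subunit, was at 3.21, 1.26 and 1.77 CPM at 0 h and 17.3, 10.7 and 4.74 CPM at 24 h, 5.21-fold higher (log2 fold change 2.38, SE 0.48, adjusted p = 0.00161). Jarid2 rose by 0.79 and Phf1 fell by 1.16 on the log2 scale, but the call of Jarid2 was lost without any single library except 24 h replicate 3, and that of Phf1 without 0 h replicate 1 or 3 or 24 h replicate 2 or 3. The core subunits were not called: Ezh2 had a log2 fold change of 0.43 (SE 0.24, adjusted p = 0.189), Suz12 of 0.07 (SE 0.21, adjusted p = 0.848) and Eed of 0.08 (SE 0.32, adjusted p = 0.876). Suz12 was at 307, 232 and 312 CPM and 358, 278 and 255 CPM, and its libraries overlapped. Of 13 nuclear envelope genes 1 rose and 2 fell, and 0 of 13 were called without 0 h replicate 1 or without 24 h replicate 3; 0 rose without 0 h replicate 2 or 3, and 2 without 24 h replicate 1; with all libraries 4 were higher and 3 lower at an unadjusted p under 0.05, and DESeq2 called 4 higher and 2 lower. Lmnb1, of the nuclear lamina, was at 165, 116 and 138 CPM and then at 339.9, 177 and 194 CPM, higher in every library but not called (0.76, adjusted p = 0.0841). Sun1, which links the lamina to the cytoskeleton, was at 150.5, 125 and 149 CPM and 83.8, 92.0 and 71.0 CPM (log2 fold change -0.78, SE 0.22, adjusted p = 0.0138), and Lbr, the lamin B receptor, at 109.6, 135 and 134 CPM and 164, 196 and 289 CPM (log2 fold change 0.78, SE 0.25, adjusted p = 0.0293), a call lost without 24 h replicate 3 or any library of 0 h.

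Of genes of cell adhesion and of the epithelial-mesenchymal transition (EMT), 3 rose and 4 fell among 15 (12.7% and 13.3% of all genes), with Epcam, Esrp1 and Cldn6 as those that rose. Epcam, an epithelial adhesion molecule, was at 37.3, 40.0 and 30.4 CPM at 0 h and 127, 127 and 196 CPM at 24 h, 4.18-fold higher (log2 fold change 2.06, SE 0.25, adjusted p = 2.25e-05). Esrp1, a splicing factor of epithelia, went from 3.90, 2.16 and 1.01 CPM to 34.6, 14.5 and 21.8 CPM (log2 fold change 3.31, SE 0.48, adjusted p = 0.00011), and Cldn6 from 4.18, 7.06 and 2.30 CPM to 15.4, 20.0 and 10.3 CPM (log2 fold change 1.75, SE 0.38, adjusted p = 0.00258). Cdh1 (E-cadherin) was at 217, 133 and 210.4 CPM and 297, 170.0 and 177 CPM and was not called (adjusted p = 0.726). The 4 that fell were Snai1, Fn1, Cldn4 and Zeb2, and they became 2 without 0 h replicate 1, 0 h replicate 3 or 24 h replicate 2, and 0 without 24 h replicate 3 (with all libraries 4 in DESeq2 and 4 at an unadjusted p under 0.05). Fn1 was at 1623, 394 and 1791 CPM and then at 656, 196 and 124 CPM, with 0 h replicate 2 within the range of 24 h. Of the 13 feeder fibroblast markers 5 fell and 0 rose (13.3% and 12.7% of all genes), and 4 to 7 fell when single libraries were left out. Acta2, of the contractile cytoskeleton, was at 38.6, 83.2 and 146 CPM and then at 4.86, 6.15 and 8.38 CPM (log2 fold change -3.78, SE 0.47, adjusted p = 2.45e-05), and the collagen crosslinker Lox at 118, 119 and 156 CPM and 18.3, 12.7 and 13.4 CPM (log2 fold change -3.15, SE 0.39, adjusted p = 2.56e-05). Col1a1 was at 72.7, 20.3 and 225 CPM and 58.2, 4.95 and 6.60 CPM, highest in 0 h replicate 3 and still high in 24 h replicate 1, and was not called (adjusted p = 0.0844). Dcn, a matrix proteoglycan, was at 3.17, 4.54 and 4.41 CPM at 0 h and 9.67, 4.57 and 7.30 CPM at 24 h, higher in every library of 24 h but not called (log2 fold change 0.83, adjusted p = 0.25). None of the 13 markers was at 0 in any of the 6 libraries of KO#2. The part of these markers in the falls of Fn1, Zeb2 and the LIF-Stat3 genes was not tested.

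Cholesterol synthesis was the list with the most rises. Of its 20 genes 16 rose (12.7% of all genes rose), with a median log2 fold change of 1.55 against -0.03 over all genes tested. In 18 of them every library of 24 h lay above every library of 0 h, as in 22.8% of all genes. Their summed level was 684.1, 668.4 and 596.9 CPM at 0 h and 1979, 1658 and 2189 CPM at 24 h. The rises ran along the pathway: Hmgcs1, the synthase of HMG-CoA, was at 71.6, 88.6 and 67.2 CPM and then at 285, 291 and 349.7 CPM, 4.07-fold higher (log2 fold change 2.02, SE 0.33, adjusted p = 0.000291). Fdps, which makes farnesyl diphosphate, rose from 24.6, 37.8 and 25.9 CPM to 121, 109.8 and 197 CPM, 4.85-fold (log2 fold change 2.28, SE 0.34, adjusted p = 0.000147). Sqle, the epoxidase of squalene, was at 37.7, 38.9 and 38.7 CPM and 95.1, 95.3 and 112 CPM (log2 fold change 1.39, SE 0.21, adjusted p = 0.000161), and its libraries varied little within a time. Idi1, Mvd, Lss, Cyp51 and Dhcr7 rose by 1.56 to 2.55 on the log2 scale. Outside the enzymes, the sterol sensor Insig1 rose 4.43-fold. The 4 not called were Nsdhl, Sc5d, Pmvk and the regulator Srebf2, the last at 99.3, 34.3 and 77.0 CPM and 169.9, 63.7 and 55.8 CPM. The sterol element TCACNCCAC, searched for on both strands after the data were seen, was present in the window of Hmgcs1 alone among 14 genes of the list with a window, against 1.44% of all genes and 1.24% of all windows. It lies 137 bases before the start in chr13:119690179-119690258 of GRCm38.p6 (plus strand), shown here with the fixed letters of the motif in capitals as the pathway's one match.

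Hmgcs1: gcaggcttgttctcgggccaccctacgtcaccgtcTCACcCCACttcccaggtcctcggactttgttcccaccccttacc

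Other metabolic lists were mixed. Of 16 genes of glucose uptake and glycolysis 3 rose and 3 fell, close to the shares over all genes (12.7% rose, 13.3% fell). Eno1 was at 357, 297 and 472 CPM and then at 938, 701 and 1176 CPM, 2.50-fold higher (log2 fold change 1.32, SE 0.28, adjusted p = 0.00212), and the lactate exporter Slc16a3 rose 6.32-fold (log2 fold change 2.66, SE 0.40, adjusted p = 0.000148). In the other direction, the glucose transporter Slc2a3 was at 1263, 1115 and 1048 CPM and then at 375, 447 and 264 CPM, 3.15-fold lower (log2 fold change -1.66, SE 0.36, adjusted p = 0.00269), and Hk1 was 2.91-fold lower (log2 fold change -1.54, SE 0.30, adjusted p = 0.00109). None of 23 nuclear genes of the respiratory chain was called in edgeR; 2 rose at an unadjusted p under 0.05, and DESeq2 called 1 higher. Of 13 mitochondrial genome genes 1 rose, mt-Nd3, and not without 0 h replicate 2, 0 h replicate 3, 24 h replicate 1 or 24 h replicate 3. None fell with all libraries, and 3 fell without 24 h replicate 1, where the median log2 fold change of the list was -0.61 against -0.39. The share of all counts on the mitochondrial genome was 1.92% ± 0.173 at 0 h and 1.2% ± 0.354 at 24 h (SD, n = 3; two-sided p = 0.1 by the same exact test). Of 10 genes of the amino acid stress response 4 fell (13.3% of all genes fell), and 2 when any single library except 24 h replicate 3 was left out. Ddit3 (Chop) was at 25.8, 50.4 and 28.4 CPM and then at 3.61, 5.73 and 10.99 CPM (log2 fold change -2.36, SE 0.40, adjusted p = 0.000398), and asparagine synthetase Asns at 431, 657 and 492 CPM and 125, 239 and 198 CPM (log2 fold change -1.49, SE 0.31, adjusted p = 0.00206), while Atf4 itself was not called (-0.35, adjusted p = 0.404).

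Among regulators of the cell cycle, Myc, which MEK inhibition holds down in naive cells, was at 1.95, 1.93 and 3.69 CPM at 0 h and 55.3, 27.1 and 34.5 CPM at 24 h, 15.4-fold higher (log2 fold change 3.95, SE 0.42, adjusted p = 5.21e-06). Ccne1 (cyclin E1) was at 23.2, 28.7 and 24.9 CPM and 117, 124 and 151 CPM, 5.10-fold higher (log2 fold change 2.35, SE 0.29, adjusted p = 2.14e-05). Cdkn1b (p27), a brake on the G1 kinases, was at 29.6, 31.8 and 38.9 CPM and 7.53, 11.3 and 10.9 CPM, 3.36-fold lower (log2 fold change -1.75, SE 0.21, adjusted p = 1.71e-05). Mycn (0.29, adjusted p = 0.614) and Ccnd3 (0.00, adjusted p = 1) were not called. Of the 13 genes on this list 5 rose and 2 fell (12.7% and 13.3% of all genes), and 3 rose without 0 h replicate 1 and 1 fell without 24 h replicate 3. The falls among p53 targets and the calls in the interferon list were near those shares. Of 11 p53 targets 1 fell, Cdkn1a (p21), from 46.4, 38.3 and 45.0 CPM to 20.4, 22.1 and 12.3 CPM, a call lost without 24 h replicate 3, while Mdm2 had a log2 fold change of 0.00 (adjusted p = 0.996). In this list 2 genes fell without 24 h replicate 1 or 24 h replicate 2, and 1 rose without 0 h replicate 2 or 24 h replicate 1. Of 10 interferon and antigen presentation genes tested 2 rose and 1 fell, and 1 rose without 24 h replicate 3 and 2 fell without 24 h replicate 1. Irf1 was at 9.43, 9.49 and 11.2 CPM and 32.3, 34.4 and 32.6 CPM (log2 fold change 1.72, SE 0.30, adjusted p = 0.000427), and B2m, which fell, lost its call without 0 h replicate 2 or 3 or 24 h replicate 2 or 3. Of 8 structural noncoding RNAs 2 fell. Neat1, the scaffold of paraspeckles, was at 649.8, 211 and 344 CPM and then at 46.2, 40.3 and 26.2 CPM, 10.7-fold lower (log2 fold change -3.42, SE 0.36, adjusted p = 4.53e-06). Malat1 was at 9434, 7822 and 7155 CPM and 2869, 1682 and 1723 CPM, 3.89-fold lower (log2 fold change -1.96, SE 0.34, adjusted p = 0.000512), and the 7SK RNA Rn7sk was not called (-0.17, adjusted p = 0.838).

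**Figure D4:**
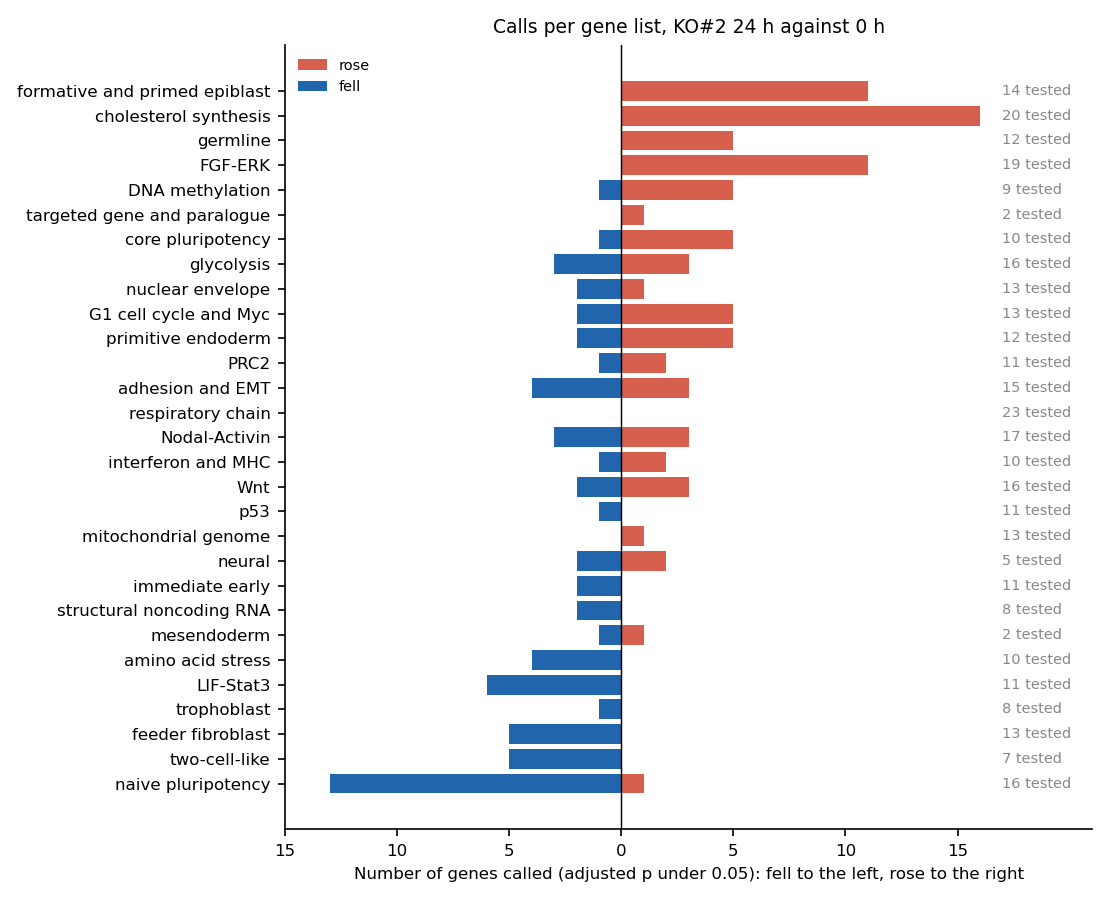
Number of genes called higher (to the right) or lower (to the left) at 24 h than at 0 h in KO#2 in each of the 29 gene lists, ordered by the median log2 fold change of the list. The number of genes tested stands at the right. Cholesterol synthesis had 16 rises of 20 genes, and naive pluripotency 13 falls of 16.

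The response of KO#2 was then compared with those of wt cells and KO#1 by an interaction term, the difference between 2 log2 fold changes. It differed from wt cells in 244 genes (1.47% of the genes tested), higher in 158 (0.951%) and lower in 86 (0.517%), and from KO#1 in 40 genes (0.241%), higher in 13 (0.0782%) and lower in 27 (0.162%). At 24 h the abundant 7SL, 7SK, Rmrp and Rpph1 RNAs held 25.0% to 41.9% of the counts in wt cells and KO#1 and 5.07% to 9.09% in the libraries labelled KO#2, with TMM factors of 0.507 to 0.838 and 1.31 to 1.45. The part of this composition in the differences was not tested. With library sizes alone, 801 genes differed from wt cells (756 higher and 45 lower) and 222 from KO#1 (213 higher and 9 lower), in a setting that moved the median difference over all genes to 0.57 and 0.78. Single libraries weighed heavily on these counts. The first lay between 51 (without KO#2 0 h replicate 2) and 563 (without KO#2 24 h replicate 3), and changed by over 1.5 times without 9 of 12 libraries, the exceptions being KO#2 0 h replicates 1 and 3 and wt 24 h replicate 3. The second lay between 5 (without KO#2 0 h replicate 2, KO#1 24 h replicate 1 or KO#1 24 h replicate 2) and 120 (without KO#1 24 h replicate 3), and changed by over 1.5 times without any of the 12 but KO#2 0 h replicate 3.

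A response that differed from both wt cells and KO#1 in one direction was called in 18 genes, 8 higher and 10 lower in KO#2. Both comparisons share the 6 libraries of KO#2. Of those named here, Vegfa, Chac1 and Tmem44 kept both calls in every fit that left out 1 library. Vegfa, the vascular growth factor, was at 110.0, 76.9 and 53.9 CPM at 0 h and 14.7, 16.6 and 12.9 CPM at 24 h in KO#2. In wt cells it was at 115, 56.5 and 108 CPM and then at 2.76, 2.91 and 1.73 CPM, and in KO#1 at 89.5, 62.4 and 69.2 CPM and 2.20, 1.43 and 1.18 CPM. The gene fell in all 3 lines, and least in KO#2: the log2 fold change was -2.44, against -5.24 in wt cells (difference 2.80, SE 0.45, adjusted p = 0.00649) and -5.52 in KO#1 (difference 3.07, SE 0.46, adjusted p = 0.0106). Chac1, which degrades glutathione under amino acid stress, was at 36.5, 32.8 and 28.6 CPM and 9.15, 17.95 and 21.3 CPM in KO#2, at 40.3, 46.5 and 99.3 CPM and 2.29, 3.51 and 2.04 CPM in wt cells, and at 39.5, 53.9 and 34.2 CPM and 0.735, 1.94 and 1.74 CPM in KO#1. Its fall was again smaller in KO#2 (difference 3.58 from wt cells, adjusted p = 0.00435, and 3.84 from KO#1, adjusted p = 0.0106). The fall of Chac1 within KO#2 (log2 fold change -1.01, SE 0.36, adjusted p = 0.0466) lost its call without any single library but 24 h replicate 3, with log2 fold changes of -1.26 to -0.73. The amino acid transporter Slc1a4 was at 55.6, 47.7 and 55.5 CPM and 20.0, 32.8 and 36.2 CPM in KO#2, with differences of 1.84 from wt cells and 2.19 from KO#1. Its fall within KO#2 (log2 fold change -0.83, SE 0.30, adjusted p = 0.0496) lost the call in all 6 fits that left out 1 library, and its difference from wt cells in 9 of 12. Scd2, a desaturase of fatty acids, was at 221, 174 and 327 CPM and 766, 480.0 and 912 CPM in KO#2 and rose 2.99-fold, while wt cells and KO#1 had log2 fold changes of -0.78 and -0.64 (differences 2.36 and 2.22, adjusted p = 0.0148 and 0.0458). Gys1, a glycogen synthase, was at 49.9, 45.6 and 55.4 CPM and 43.6, 59.3 and 40.8 CPM in KO#2 and fell in the other lines (differences 1.41 and 1.47), and the response of H2-M5 was higher by 1.92 and 2.15. At 0 h Gys1 was higher in the other lines, at 91.1 to 112.8 CPM in wt cells and 88.1 to 92.1 CPM in KO#1. At 24 h it was at 33.1 to 41.1 and 29.2 to 33.5 CPM. Scd2 was also higher in them at 0 h, at 362.4 to 521.5 CPM in wt cells and 353.5 to 539.1 CPM in KO#1. The difference from KO#1 was lost without 8 of 12 single libraries for Scd2 and Gys1, 10 for Slc1a4 and 11 for H2-M5, with differences of 2.02 to 2.54, 1.29 to 1.58, 1.98 to 2.45 and 1.87 to 2.52.

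Among the 6 lower responses named, that of Krt18 differed the most from both lines. It was at 42.5, 79.2 and 7.10 CPM at 0 h in KO#2 and at 12.3, 30.0 and 10.5 CPM at 24 h, where wt cells had 3.61, 1.93 and 1.67 CPM and then 18.1, 25.8 and 46.8 CPM, and KO#1 4.95, 2.09 and 3.04 CPM and 25.1, 30.6 and 50.8 CPM. The levels at 24 h overlapped between the lines, and at 0 h every library of KO#2 was above every library of the other lines (difference -5.09 from wt cells, adjusted p = 0.013, and -4.66 from KO#1, adjusted p = 0.0407). S100a6, a calcium-binding protein, was at 16.8, 31.6 and 30.8 CPM and 44.2, 59.4 and 37.9 CPM in KO#2, and rose to 146, 137 and 158 CPM in wt cells, with 461, 235 and 284 CPM for KO#1 (differences -2.34 and -2.46). Aldh1a3, which makes retinoic acid, was at 6.18, 10.2 and 6.76 CPM and 4.70, 7.28 and 7.95 CPM in KO#2, and reached 50.9, 77.0 and 38.5 CPM in wt cells, with 61.0, 66.0 and 25.9 CPM for KO#1 (differences -2.90 and -2.57, adjusted p = 0.00883 and 0.0407). The levels of S100a6 and Aldh1a3 at 24 h in KO#2 lay below every library of the other lines. Tmem44, a membrane protein gene, fell in KO#2, from 7.92, 11.6 and 8.73 CPM to 2.72, 4.18 and 1.74 CPM, and rose in both other lines, by 0.95 and 2.42 on the log2 scale (differences -2.65 and -4.12). The differences of Nme4 were -1.45 and -2.04, and those of 2200002D01Rik -2.87 and -2.72. The difference from KO#1 was lost without 9 of 12 single libraries for Krt18 and Aldh1a3, 8 for S100a6 and 2200002D01Rik and 5 for Nme4, while the direction held in each of these fits.

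**Figure D5:**
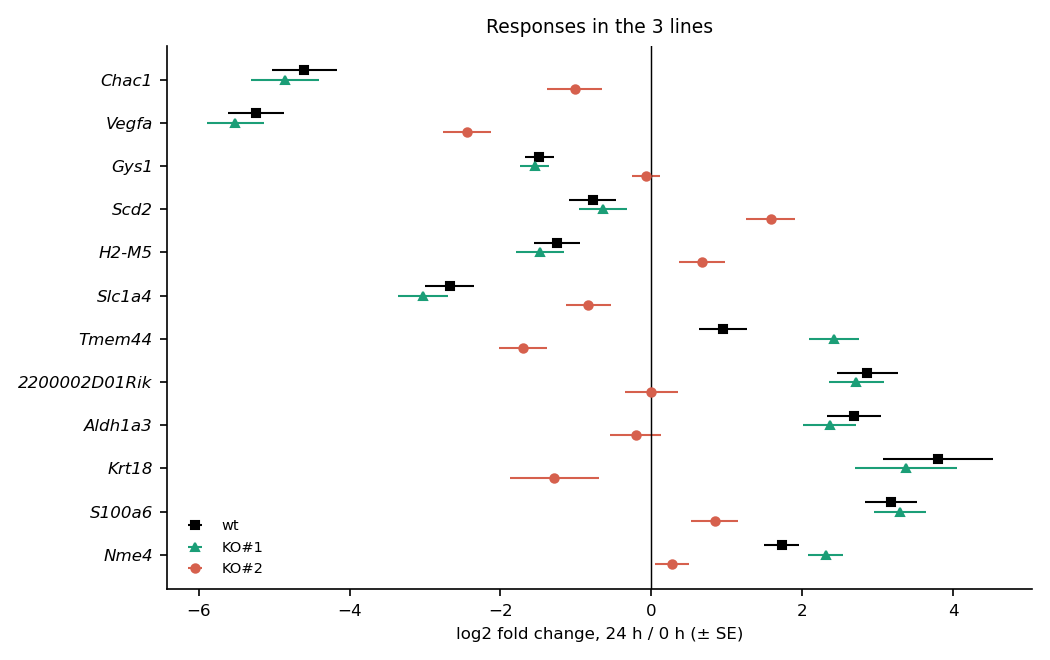
Log2 fold change from 0 h to 24 h with its SE in wt cells (squares), KO#1 (triangles) and KO#2 (circles) for 12 of the genes whose response in KO#2 differed from both other lines. The upper 6 responses were higher in KO#2 and the lower 6 were lower.

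Of the 16 naive genes, 4 had a higher response in KO#2 than in wt cells (0.951% of all genes had): Tbx3 (difference 4.21, adjusted p = 0.00551), Klf5 (3.21, adjusted p = 0.026), Klf4 (2.94, adjusted p = 0.0231) and Klf2 (2.11, adjusted p = 0.0447). Tbx3 was at 42.6, 29.6 and 8.21 CPM at 24 h in KO#2 and at 2.59 to 3.58 CPM in wt cells, so that it fell in both. In KO#1 it was at 11.3 to 18.4 CPM, also above wt cells. At 0 h Tbx3 was at 131.5 to 321.8 CPM in KO#2 and 339.3 to 647.5 CPM in wt cells. Klf5 was at 52.8 to 96.5 and 111 to 275 CPM, Klf2 at 58.6 to 86.5 and 146 to 343 CPM. Klf4 was at 114.8 to 194.9 and 194.8 to 397.1 CPM. At 24 h Klf5 was at 8.21 to 27.5 CPM in KO#2 and 4.11 to 5.56 CPM in wt cells. Klf2, at 7.56 to 20.3 and 9.21 to 13.7 CPM, and Klf4, at 4.00 to 18.9 and 2.35 to 4.46 CPM, overlapped. None of the 16 genes differed in response between the clones at the threshold, and the median log2 fold change of the list was -2.82 in KO#2, -2.94 in KO#1 and -4.24 in wt cells. In KO#1 the log2 fold changes were -4.81 for Tbx3, -2.86 for Klf5, -5.55 for Klf4 and -3.46 for Klf2. The call of Tbx3 held in all 12 fits that left out 1 library, whereas those of Klf4, Klf5 and Klf2 were lost in 6, 8 and 10 of them, with differences of 2.54 to 3.37, 2.80 to 3.57 and 1.77 to 2.43. Other genes went opposite ways, and their calls held in all 12 fits. Sox11 rose in KO#2, where wt cells had a log2 fold change of -0.90 (difference 3.56, SE 0.38, adjusted p = 0.000389). Eomes rose in KO#2 and fell by 2.67 on the log2 scale in wt cells (difference 4.33, SE 0.49, adjusted p = 0.000437). The FGF-ERK inhibitors Spry1 and Spry2 rose in KO#2, against log2 fold changes of -1.13 and -1.30 for wt cells (differences 2.23 and 2.14, adjusted p = 0.013 and 0.00694). In KO#1 these log2 fold changes were 2.21 for Sox11, 0.33 for Eomes, 1.10 for Spry1 and 1.29 for Spry2, and none of the 4 differed between the clones at the threshold. The lines also differed in level at 0 h: Sox11 was at 44.6 to 79.4 CPM in wt cells and 3.49 to 5.13 CPM in KO#2, and Spry2 at 97.3 to 159 and 17.7 to 21.9 CPM. At 24 h Sox11 was at 27.9 to 36.0 CPM in wt cells and 17.2 to 31.5 CPM in KO#2, which overlapped, and Spry2 at 49.8 to 60.5 and 32.8 to 37.4 CPM. Eomes was at 6.79 to 15.4 CPM in wt cells and 2.49 to 4.06 CPM in KO#2 at 0 h, and Spry1 at 10.0 to 15.4 and 6.48 to 8.49 CPM, whereas at 24 h both were higher in KO#2, Eomes at 7.43 to 11.3 against 1.67 to 1.88 CPM and Spry1 at 13.97 to 19.9 against 3.93 to 7.35 CPM. The cholesterol synthesis and formative lists had median log2 fold changes of 1.09 and 2.56 for wt cells, and for KO#1 of 0.75 and 2.12.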

How the data were processed

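RNA-seq gene counts of 18 libraries of mouse iPSCs were used, with 3 biological replicates of wt cells, KO#1 and KO#2 at 0 h and at 24 h. The authors deposited raw counts per gene, made from paired-end stranded total RNA libraries with the nf-core rnaseq pipeline (Trim Galore, STAR on GRCm38, Salmon and StringTie); the annotation release and the use of strand in counting are not given in the sources used here. Samples were grouped by their labels. No 2 libraries held identical counts.

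Genes were filtered with filterByExpr (minimum count 10), libraries were scaled by TMM, and 1 model with 6 groups over the 18 libraries was fitted with the quasi-likelihood test of edgeR 4.0.16 in R 4.3.3. A gene was called at a Benjamini-Hochberg adjusted p under 0.05 over all 16619 genes tested. Every adjusted p in the text is from this fit unless another tool is named. Response differences between lines were interaction contrasts. The model was first tested on simulated data. Shares of counts between times were compared by exact permutation tests. Figures were drawn with matplotlib 3.10.9 in Python 3.11.15.

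The genes named were Hmga2 and Hmga1; the 8 largest rises and 8 largest falls among called protein-coding genes with a mean log2 CPM of at least 2 and no overlap between times; from each of 29 lists (361 genes), up to 4 called genes a direction by smallest p and up to 3 abundant genes not called; and 6 genes a direction whose response differed from both other lines. T and some list genes outside this rule, such as Cish, Dppa3 and several cholesterol enzymes, were named after their values were seen. The lists and the comparison were chosen with earlier results of these data known. Gene types, positions and overlaps came from GENCODE M21 (GRCm38), and promoter windows from RefSeq. Some genes that the rule names are not reported here.

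Alternatives were RLE factors, library sizes alone, no filter, 10 counts in every library, a stricter adjusted p (0.01), a minimum size of 1 for the absolute log2 fold change, the replicate number as a block, only the lines compared, DESeq2 1.42.0, leaving out each library, and GC or length offsets added after seeing the data.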

Additional observations from a re-analysis of the deposited data

Results flagged for a closer look

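Responses that differed between KO#2 and another line by the interaction test are collected here, for genes of the lists and genes named by rule. Of 26 such differences from wt cells 9 were called in all 12 fits that left out 1 library, and of 13 differences from KO#1 3 were. Values are differences of log2 fold changes, KO#2 minus the other line, with adjusted p from edgeR.

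Against wt cells, the responses that were higher in KO#2 and kept the call in all 12 fits were those of Eomes (4.33, adjusted p = 0.000437), Tbx3 (4.21, adjusted p = 0.00551), Chac1 (3.58, adjusted p = 0.00435), Sox11 (3.56, adjusted p = 0.000389), Vegfa (2.80, adjusted p = 0.00649), Spry1 (2.23, adjusted p = 0.013) and Spry2 (2.14, adjusted p = 0.00694). Those that were lower and kept it were Aldh1a3 (-2.90, adjusted p = 0.00883) and Tmem44 (-2.65, adjusted p = 0.00883). Higher responses lost in 1 fit or more were those of Klf5 (3.21), Axin2 (3.07), Klf4 (2.94), Bcl3 (2.77), Trib3 (2.43), Scd2 (2.36), Klf2 (2.11), H2-M5 (1.92), Slc1a4 (1.84), Cdkn1b (1.59) and Gys1 (1.41). Lower responses lost in 1 fit or more were those of Krt18 (-5.09), Cdkn1c (-3.36), 2200002D01Rik (-2.87), S100a6 (-2.34), Nme4 (-1.45) and Dcn (-8.64). Dcn, a matrix proteoglycan of fibroblasts, had 0 counts in wt cells at 0 h, so that its fitted size depends on the prior count and is no bound.

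Against KO#1, Chac1 (3.84, adjusted p = 0.0106), Vegfa (3.07, adjusted p = 0.0106) and Tmem44 (-4.12, adjusted p = 0.000594) kept the call in all 12 fits. The others, each lost in 5 to 11 fits, were Scd2 (2.22), Slc1a4 (2.19), H2-M5 (2.15) and Gys1 (1.47), higher in KO#2, and Krt18 (-4.66), Cldn6 (-2.97), 2200002D01Rik (-2.72), Aldh1a3 (-2.57), S100a6 (-2.46) and Nme4 (-2.04), lower in KO#2.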

How the results depend on the processing

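The 4324 genes called between 0 h and 24 h in KO#2 became 2614 with 10 counts in every library, a filter that leaves fewer genes, and 2275 at an adjusted p under 0.01, and lay between 2534 and 4104 when single KO#2 libraries were left out. In the other settings the count was 2904 to 5572. The same-numbered libraries of the 2 times deviated from their group means with correlations of 0.457, 0.333 and -0.001. Those of unlike number had correlations of -0.591 to 0.361. The main fit did not take the numbers to pair the samples, and these values do not settle whether the numbers mark shared batches. With the replicate number as a block 4520 genes were called, of which 4189 were also called without the block.

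The difference from wt cells (244 genes) became 801 with library sizes alone, 1717 with no filter, 447 with the block, 32 at an adjusted p under 0.01, 1037 with the block in only the lines compared, 1409 in DESeq2, 468 with length offsets and the block, and 51 to 563 when single libraries were left out. The difference from KO#1 (40 genes) became 222, 783, 103 and 1 in the first 4 of these settings, 6 with only the lines compared and 7 with the block added, 457 in DESeq2, 65 with length offsets and the block, and 5 to 120 when single libraries were left out. The cause of these shifts was not tested. Of the fitted values of the named genes across settings, 3421 kept direction and side of the threshold, 223 lost a call, 98 gained one and none called changed sign; 78 of the 117 named genes called in KO#2 kept their call without any single library. Of the germline list, 2 genes passed the filter of 10 counts in every library, and 0 rose. Levels under 0.116 to 0.157 CPM could not be told from a count of 0.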
